A study of Homo sapiens with 2 samples.

Results

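Box H/ACA small nucleolar RNAs were compared between RNA sequencing and ribosome profiling of SW13 cells, an established cell line of human adrenal adenocarcinoma origin. The members were chosen by their measured level: rows of the deposited table with a gene name starting SNORA, a mean of at least 10 FPKM over the 2 libraries and neither FAIL nor HIDATA as status. FPKM is the number of fragments scaled by transcript length and by the mapped fragments of the library. The rule kept 77 of 106 SNORA rows, out of 2734 rows of any kind that passed the same filter and 23608 rows in all. The other 29 SNORA rows were at 0 in both libraries, so no row lay just outside the threshold. The lowest means inside it were 38.2 FPKM for SNORA69, 45.9 for SNORA11B and 46.8 for SNORA59B.

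Both libraries came from SW13 cells grown with 10% serum and transfected at 80% confluence, with Lipofectamine 2000, with 5 µg of Add2-Mhrt779 and Add2-Hotair, which overexpress murine non-coding RNAs. Cells were collected after 48 h, and both libraries carried these RNAs, so no untransfected control enters any comparison here. One library was made from total RNA and the other from ribosome-associated RNA fragments obtained with a ribosome profiling kit, and both were read from both ends at 50 nt. With 1 library for each assay there is no replicate error, and no test was run on the members. The comparison asks how much of each RNA was read in the ribosome profiling library relative to total RNA. In bulk libraries such as these, fewer cells with an RNA and less of it in each cell cannot be told apart. The 8 adrenal cortex markers examined, among them NR5A1 and STAR, were all listed at 0 in both libraries.

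Box H/ACA RNAs are short nucleolar RNAs that fold into hairpins joined by a hinge, the H box, and end shortly after an ACA trinucleotide. Each pairs with a target RNA, in most cases ribosomal RNA, and places the pseudouridine synthase dyskerin (DKC1) over the uridine to be modified. Most are cut from introns of host genes, and many hosts encode ribosomal proteins, translation factors or nucleolar proteins. They act in the nucleus and are not translated.

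The sequences below are those of 5 members within TAF1D, of 2 pairs that share a host (SNORA6 with SNORA62, and SNORA4 with SNORA63), of SNORA48, the most abundant member in total RNA, and of SNORA24, the most abundant member listed at 0 in ribosome profiling. They are GENCODE v29 transcripts, matched by name and written 5′ to 3′. Capitals mark the ANANNA nearest the middle, which is the consensus of the H box, and the ACA that lies 2 to 4 bases from the 3′ end.
SNORA1: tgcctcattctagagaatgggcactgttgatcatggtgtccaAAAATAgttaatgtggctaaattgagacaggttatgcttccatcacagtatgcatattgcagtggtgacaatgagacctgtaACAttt
SNORA32: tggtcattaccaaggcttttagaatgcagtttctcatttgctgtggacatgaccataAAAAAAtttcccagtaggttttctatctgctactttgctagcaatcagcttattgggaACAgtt
SNORA25: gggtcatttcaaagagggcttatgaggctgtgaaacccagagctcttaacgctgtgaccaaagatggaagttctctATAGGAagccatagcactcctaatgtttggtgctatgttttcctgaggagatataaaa
SNORA8: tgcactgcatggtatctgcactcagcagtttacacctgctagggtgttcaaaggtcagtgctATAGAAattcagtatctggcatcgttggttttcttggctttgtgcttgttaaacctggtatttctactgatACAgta
SNORA40: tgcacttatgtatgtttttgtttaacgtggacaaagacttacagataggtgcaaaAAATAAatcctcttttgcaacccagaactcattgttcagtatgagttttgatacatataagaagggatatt
SNORA6: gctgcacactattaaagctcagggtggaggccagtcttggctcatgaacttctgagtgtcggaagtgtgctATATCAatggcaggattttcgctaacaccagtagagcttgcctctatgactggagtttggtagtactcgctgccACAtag
SNORA62: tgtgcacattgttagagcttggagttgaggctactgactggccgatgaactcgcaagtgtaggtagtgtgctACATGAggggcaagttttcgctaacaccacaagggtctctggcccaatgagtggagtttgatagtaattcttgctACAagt
SNORA4: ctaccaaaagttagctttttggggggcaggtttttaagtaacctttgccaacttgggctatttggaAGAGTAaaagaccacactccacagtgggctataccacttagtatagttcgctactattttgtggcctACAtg
SNORA63: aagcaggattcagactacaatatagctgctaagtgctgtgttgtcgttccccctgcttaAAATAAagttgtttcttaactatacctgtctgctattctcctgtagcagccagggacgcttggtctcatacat
SNORA48: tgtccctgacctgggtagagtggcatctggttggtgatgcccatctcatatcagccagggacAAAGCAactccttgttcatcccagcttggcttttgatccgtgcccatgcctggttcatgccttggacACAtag
SNORA24: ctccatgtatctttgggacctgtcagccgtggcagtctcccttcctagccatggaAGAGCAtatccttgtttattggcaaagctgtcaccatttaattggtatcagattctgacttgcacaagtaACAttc

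The transcripts of SNORA25, SNORA40 and SNORA63 had no ACA in that window. An ACA with 2 to 4 bases after it was found in 65 of the 77 members (84.4%), in 119 of 142 SNORA genes of the annotation (83.8%) and in 9 of 275 box C/D genes (3.27%). In 57 members exactly 3 bases followed it. ANANNA is a loose motif, searched on the transcribed strand like the ACA, and was present in 75 of 77 members, but also in 227 of 275 box C/D genes (82.5%).

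The members spread widely in both directions. Relative to the median tested gene, 34 of 77 members (44.2%) were at least 2-fold lower in ribosome profiling, against 19.7% of all tested rows, and 25 (32.5%) were at least 2-fold higher, against 13.1%. At 4-fold, 28 were lower and 17 higher, against 9.8% and 4.86% of tested rows. Among the members, 27 were listed at 0 in ribosome profiling, against 4.57% of tested rows, and 6 were listed at 0 in RNA sequencing, against 2.16%. The other 44 were above 0 in both. The rule used both libraries through their mean, so these counts describe the members and support nothing further. The ratio is the log2 of FPKM + 1 in ribosome profiling over FPKM + 1 in RNA sequencing, less its median over tested genes, 0.39, which is a 1.31-fold higher FPKM in ribosome profiling. The members' median ratio was -0.55, against 0 by construction for all tested genes. Over the 44 members above 0 in both it was 0.52, 1.44-fold above the median gene, with quartiles of -0.58 and 1.93, against a median of 0.035 for the 2550 tested genes above 0 in both.

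These counts shifted with depth. The FPKM values of the members could be read as whole numbers of sequenced fragments (see the processing description), and these were few. Of 72 members with such an estimate, 55 had at most 10 fragments in each library and 22 at most 3. The median member had 4 fragments in RNA sequencing against 2 in ribosome profiling. Depending on length, 1 fragment was worth 46.2 to 103 FPKM in RNA sequencing and 72.0 to 161 in ribosome profiling. In RNA sequencing it fell from 103 FPKM at 121 nt (SNORA32) to 63.8 at 139 nt (SNORA8). That is steeper than in proportion to length, so FPKM of rows of unlike length, hosts included, do not compare per base. Among the 29 members with at least 10 fragments over both libraries, an alternative chosen after the values were seen, 6 were at least 2-fold lower and 15 at least 2-fold higher, and 2 were at 0 in ribosome profiling, beside the same shares of all tested rows. Their median ratio was 1.06, against -0.55 for all members, so the overall median changed sign when the rows of fewer fragments were left out. It also turned to 0.12 when the ratio was centred on all expressed genes, with no filter on mean FPKM. At a mean FPKM of at least 1 it was -0.0082. The choice of members by their fragment total also favours a row that is high in either library.

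**Figure D1:**
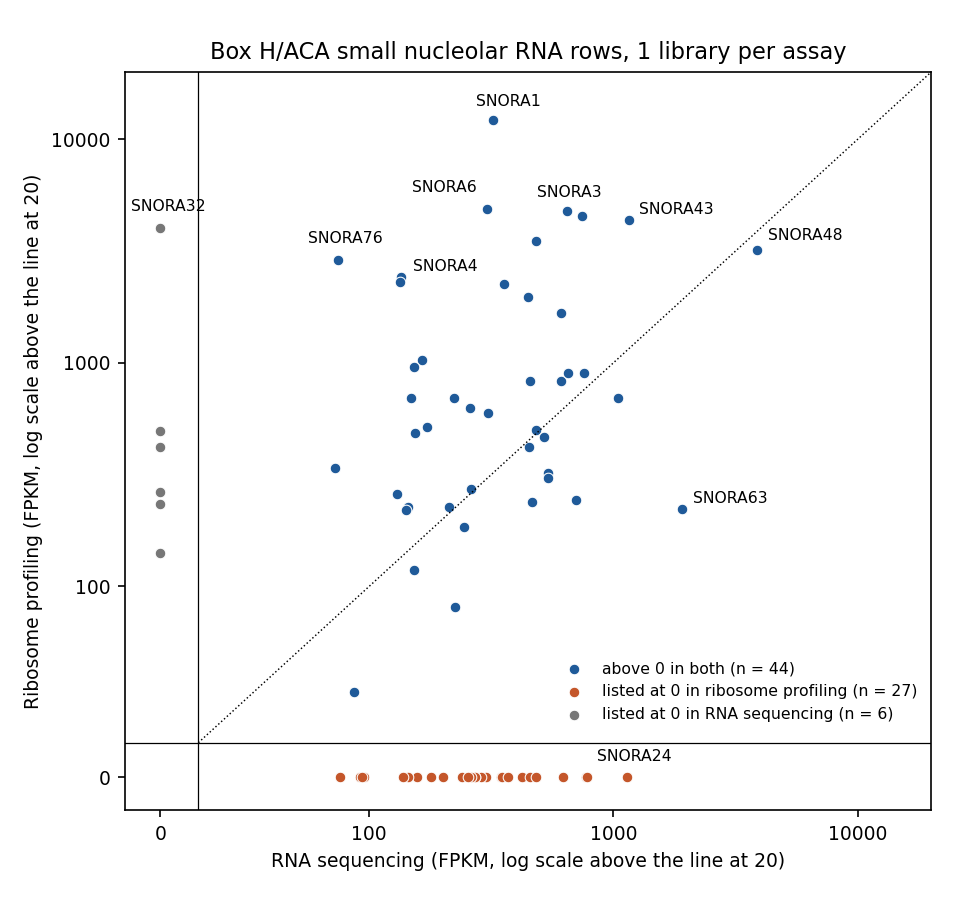
RNA sequencing FPKM (x axis) against ribosome profiling FPKM (y axis) of the 77 SNORA rows, both on log scales, with rows listed at 0 drawn in strips beyond the solid lines and the dotted line marking equal values. The points above 0 in both libraries lie on both sides of the dotted line, and 27 rows lie in the lower strip against 6 in the left one.

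**Figure D2:**
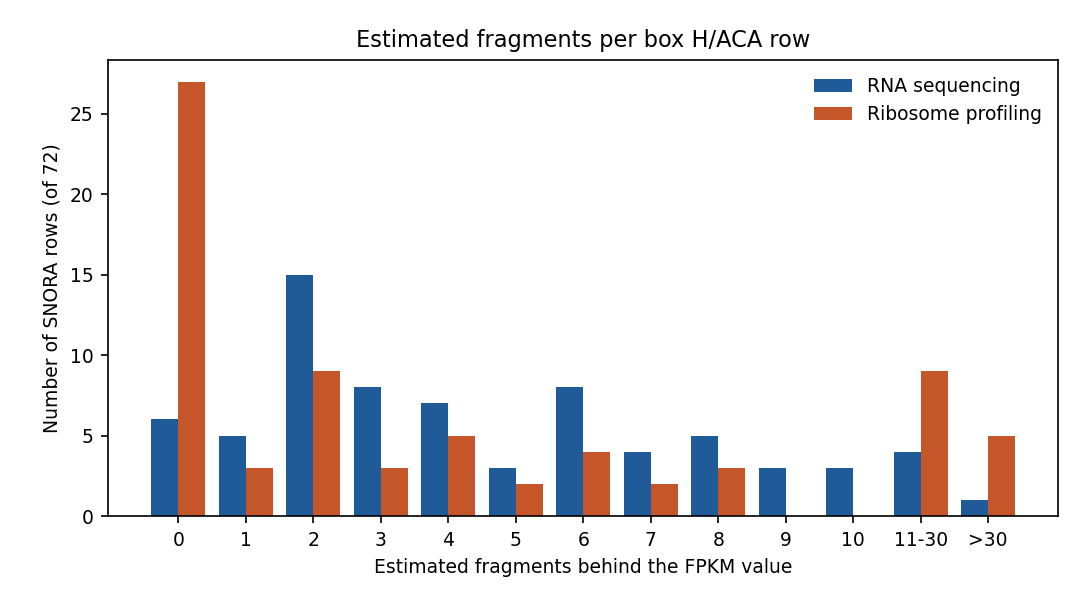
Number of SNORA rows (y axis) by the estimated number of fragments behind the FPKM value (x axis) in each library, for the 72 rows with an estimate. Most rows rest on 10 fragments or fewer, and 14 rows in ribosome profiling and 5 in RNA sequencing rest on more.

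The summed level of the members was 30755 FPKM in RNA sequencing beside 70968 in ribosome profiling, a ratio of 2.31. It was carried by few rows. SNORA1 held 17.2% of the ribosome profiling sum and the 6 highest rows held 48.9%. Without SNORA1 the ratio of sums was 1.93, and without those 6 rows it was 1.31. In RNA sequencing SNORA48 alone held 12.6% of the sum. Over the 44 members above 0 in both, FPKM ran from 72.4 to 3889 in RNA sequencing with a median of 314, and from 33.7 to 12174 in ribosome profiling with a median of 661.

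SNORA1 was the highest member in ribosome profiling. It had 322 FPKM in RNA sequencing against 12174 in ribosome profiling, or 4 and 97 fragments. The FPKM ratio was 37.8, with a 95% exact interval of 14.3 to 142 that covers counting error only. SNORA1 lay at chr11:93465170-93465299 in the deposited table, whose contig names are those of hg19. SNORA6 had 303 FPKM in RNA sequencing beside 4872 in ribosome profiling, about 6 and 65 fragments, a ratio of 16.1 (interval 7.36 to 47.7). At 151 nt, its fragments were read from a fit extrapolated beyond 139 nt. SNORA76 had 74.3 FPKM in RNA sequencing, the value of 1 fragment, and 2899 in ribosome profiling, or 25 fragments. Its ratio of 39.0 was the highest of all members above 0 in both, but its interval ran from 6.38 to 1601. These 3 rows were low to middling in total RNA and among the 10 members of highest mean FPKM.

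The authors' deposited table called 2 of the 77 members significant, against 1.87% of tested rows. These were SNORA1, with a log2 fold change of 5.24 and a q-value of 0.00509 in the authors' deposited table, and SNORA6, with 4.01 and 0.0363. SNORA76 was not called in the authors' deposited table (log2 5.29, q-value 0.0556). These q-values come from the authors' model on 1 library per assay and hold no spread between cultures.

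Other members were high in ribosome profiling at a more even depth. SNORA3 had 644 FPKM in RNA sequencing against 4769 in ribosome profiling (8 and 38 fragments), a ratio of 7.41 (interval 3.41 to 18.4). SNORA10 had 743 and 4523 FPKM in the same order (10 and 39 fragments), a ratio of 6.08 (2.98 to 13.7). SNORA43 had 1158 and 4364 FPKM (about 14 and 35 fragments), a ratio of 3.77 (2.05 to 7.85). The authors' deposited table gave SNORA43 the status LOWDATA, and its estimates of 14.4 and 34.8 fragments were not near whole numbers. In all 3 the interval lay above the ratio of the median tested gene. SNORA61 was at 483 FPKM in RNA sequencing against 3514 in ribosome profiling, and SNORA66, a guide for 18S ribosomal RNA, was at 448 and 1972. SNORA75, within the gene of nucleolin (NCL), was at 134 and 2303, which are 2 and 22 fragments. SNORA4 was at 135 and 2427, about 2 and 24 fragments, so the ratios of both rest on a pair of RNA sequencing fragments.

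Of the 35 members above 0 in both libraries with an interval, 11 had one wholly above the median gene's ratio of 1.31 and 1 had one wholly below it. The remaining 23 intervals held it. Rows at 0 in a library are outside these 35. Of them, 6 at 0 in ribosome profiling had intervals below the median gene and 2 at 0 in RNA sequencing above it. Intervals were computed for members alone, so no share of tested rows stands beside these counts. The counts also depend on the median gene's ratio, which was lower with no filter on mean FPKM, and they were not repeated there. Among the 35, the 1 below was SNORA63, with 1917 FPKM in RNA sequencing beside 222 in ribosome profiling, about 25 and 2 fragments, and a ratio of 0.116 (interval 0.0143 to 0.500). SNORA48 had 3889 FPKM in RNA sequencing, the highest value of any member there, and 3198 in ribosome profiling. With 55 and 29 fragments it was the most deeply read member in total RNA, and its ratio of 0.822 (0.506 to 1.31) reached the median gene at its upper end. SNORA45 had 705 and 244 FPKM (9 and 2 fragments), a ratio of 0.347 (0.0364 to 1.67). SNORA58, at 86.5 and 33.7 FPKM, and SNORA74B, at 224 and 80.7, were also low, and neither had an estimate that gave an interval.

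**Figure D3:**
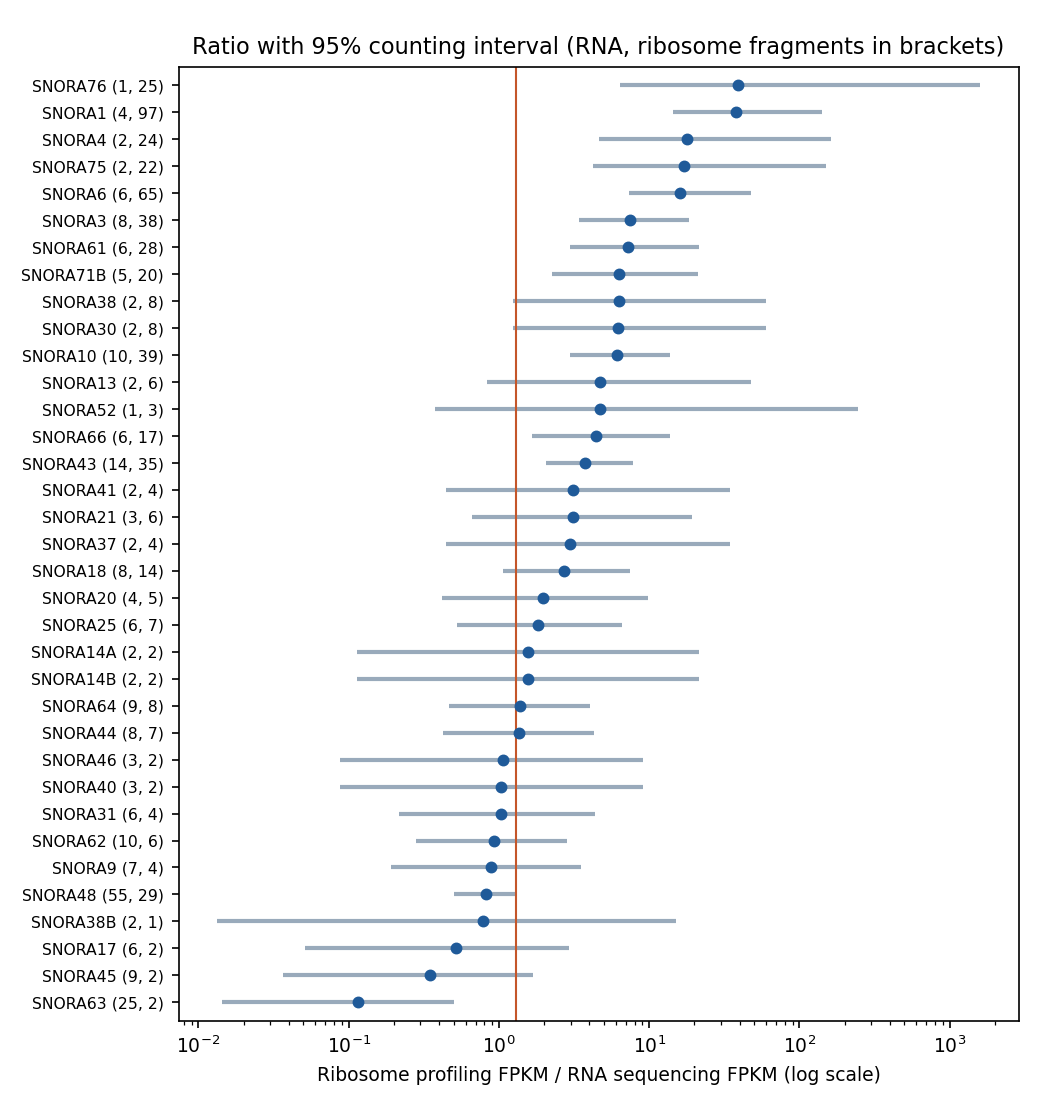
Ribosome profiling FPKM divided by RNA sequencing FPKM (x axis, log scale) for the 35 members above 0 in both libraries with an interval, with 95% exact counting intervals as bars and the estimated fragments in RNA sequencing and ribosome profiling in brackets. The vertical line is the ratio of the median tested gene, 1.31, which lies inside 23 of the 35 bars, below 11 and above 1.

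The 27 members listed at 0 in ribosome profiling passed the filter through RNA sequencing alone, so a level above 0 there was fixed by the rule. Their RNA sequencing FPKM ran from 76.3 to 1133 with a median of 270, against the 314 of members above 0 in both. In fragments this was 1 to 14, with a median of 4, and 12 of the 27 had at most 3. For 6 of the 27 the exact 95% interval of the FPKM ratio ended below the median gene's ratio of 1.31, and for 4 of these it ended below 1. The same count was not made over all tested rows. Each interval was read for its own row, without adjustment for their number. It does not allow for the choice of these rows by their 0 in ribosome profiling. SNORA24, a guide for 18S ribosomal RNA within SNHG8, had 1133 FPKM, about 14 fragments, in RNA sequencing, and its interval ended at 0.470. SNORA51, within the gene of the box C/D core protein NOP56, had 771 FPKM in RNA sequencing, about 10 fragments, and an interval up to 0.696. SNORA80 had 619 FPKM (9 fragments) and SNORA54 had 780 (8 fragments), with intervals up to 0.790 and 0.914. SNORA80B (482 FPKM) and SNORA57 (351 FPKM), at 7 fragments each, had intervals up to 1.08. In the other 21 the interval reached the median gene, so a difference from it was not detectable at this depth.

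Among the 6 members listed at 0 in RNA sequencing, SNORA32 was the highest. It was at 0 in RNA sequencing and at 4022 FPKM in ribosome profiling, or 25 fragments. The exact interval of its FPKM ratio began at 9.81. SNORA8 had 498 FPKM in ribosome profiling (5 fragments), with an interval from 1.43, just above the median gene. SNORA67 had 419 (4 fragments) and an interval from 1.03, which held the median gene. SNORA56, within the gene of dyskerin itself, had 264 FPKM, SNORA15 had 233 and SNORA27 had 142. These last 3 stood on 1 or 2 fragments, and their intervals held the median gene too.

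Members cut from the same host transcript could differ widely in their ratio. A host row was named for 74 members, giving 55 host rows, and 11 hosts held 2 or more members, 30 in all. Members of 1 host share their transcript of origin and are not independent. Pairs were taken among members above 0 in both libraries with an interval. Of these 12 pairs within 7 hosts, 6 had intervals that did not overlap. These 6 pairs lay in 4 hosts (TAF1D, EIF4A2, RPSA and RPL27A), and each of those in TAF1D held SNORA1. Pairs from different hosts were not compared, so whether sharing a host matters was not tested. TAF1D, which encodes a subunit of the RNA polymerase I selectivity factor and was named as host from the annotation, held 6 members, 5 of which have their sequences printed above. The TAF1D row had 8.0 FPKM in RNA sequencing against 8.58 in ribosome profiling. Within it, SNORA1 and SNORA32 were far higher in ribosome profiling, as given above. SNORA18 was at 610 FPKM in RNA sequencing beside 1667 in ribosome profiling (8 and 14 fragments), and SNORA25 at 458 and 833 (6 and 7 fragments). SNORA40 was at 262 and 272 (3 and 2 fragments). The interval of SNORA1 lay above those of SNORA18 (1.07 to 7.51), SNORA25 (0.524 to 6.56) and SNORA40 (0.0869 to 9.08), which overlapped each other. SNORA32, left out of the pairs as a row at 0, had an interval from 9.81, which also lay above these. None of the 6 was at least 2-fold lower than the median gene, and 4 were at least 2-fold higher, against 19.7% and 13.1% of tested rows.

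EIF4A2, which encodes a helicase of translation initiation, held members at both ends. SNORA63 was high in RNA sequencing and low in ribosome profiling, SNORA4 the reverse, and their intervals of 0.0143 to 0.500 and 4.65 to 163 did not overlap. The host row was at 32.4 FPKM in RNA sequencing against 27.4 in ribosome profiling, and SNORA81, the third member, was at 260 and 626. RPSA, a ribosomal protein gene, had 96.8 FPKM in RNA sequencing beside 179 in ribosome profiling. It held SNORA6, with the ratio of 16.1, and SNORA62, at 450 and 421 FPKM (about 10 and 6 fragments), with a ratio of 0.934. Their intervals, 7.36 to 47.7 and 0.280 to 2.84, did not overlap. In RPL27A, SNORA3 was high in ribosome profiling and SNORA45 was not, with intervals of 3.41 to 18.4 and 0.0364 to 1.67. These 2 members carry copy names in GENCODE v29, and whether they share reads was not examined. In RPS2, SNORA10 had a ratio of 6.08 and SNORA64, a guide for 28S ribosomal RNA, was at 652 and 904 FPKM (9 and 8 fragments), a ratio of 1.39 (0.466 to 4.05). The intervals of this last pair overlapped. These hosts were singled out after their values were seen.

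In the remaining shared hosts no pair of members above 0 in both libraries had separate intervals. EIF4A1 held SNORA48 and SNORA67. SNHG12, a non-coding host at 2.06 FPKM in RNA sequencing against 0 in ribosome profiling, held SNORA61 at 483 and 3514, SNORA44 at 610 and 833, and SNORA16A at 145 and 0. SNHG7 held SNORA43 and SNORA17, both with the status LOWDATA, the second at 462 and 238. In KANSL2 both SNORA2A (424 FPKM) and SNORA34 (268 FPKM) were listed at 0 in ribosome profiling. In CNOT1, SNORA46 was at 213 and 226 and SNORA50 at 346 and 0. Of the 55 host rows, 37 passed the filter, 11 of them at least 2-fold lower in ribosome profiling and 2 at least 2-fold higher, against 19.7% and 13.1% of tested rows, with a median ratio of -0.17.

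**Figure D4:**
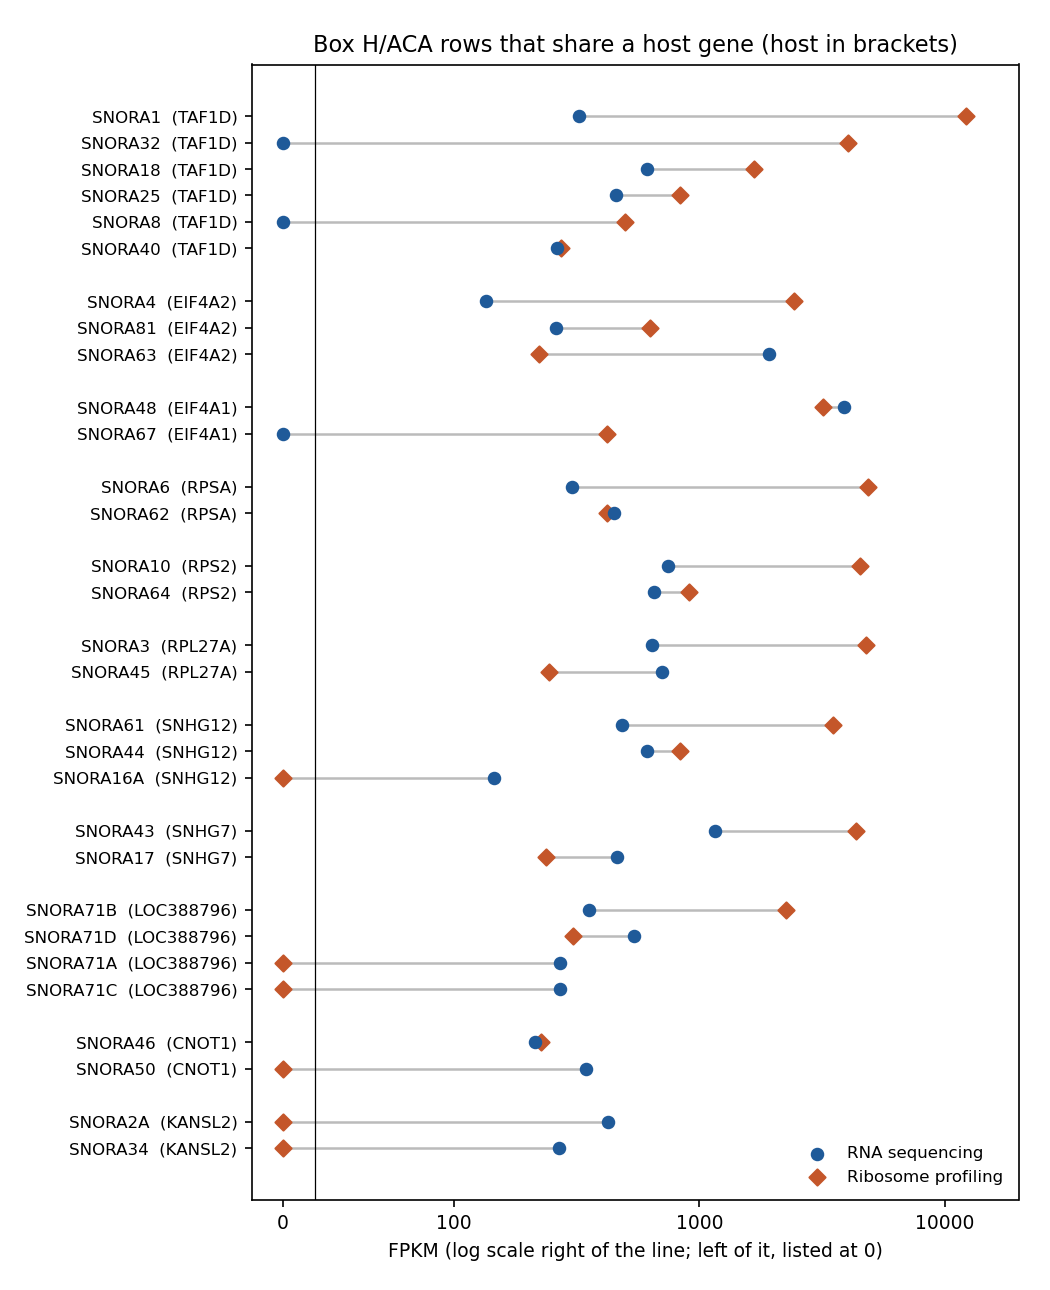
FPKM in RNA sequencing (circles) and ribosome profiling (diamonds) on a log scale (x axis) for the 30 members that share 1 of 11 hosts, with the host in brackets and values listed at 0 left of the vertical line. Within TAF1D, EIF4A2 and RPSA the lines between the symbols differ in length or direction from member to member.

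The counts by kind of host and by target are small, and stand beside 19.7% lower and 13.1% higher among all tested rows and 44.2% and 32.5% among all members. By kind of host, 7 of the 17 members in ribosomal protein genes were at least 2-fold lower and 7 at least 2-fold higher. The counts were 8 lower and 4 higher of 14 in non-coding hosts, 2 and 3 of 7 in translation factor genes, and 16 and 10 of 36 in other protein-coding genes. Targets came from an incomplete list, which leaves most members without one. Among the 9 members on it as guides for 18S ribosomal RNA, 6 were at least 2-fold lower, 4 of them listed at 0 in ribosome profiling. The other 3 were at least 2-fold higher. The 4 copies of SNORA71 on 1 locus gave 3 of the lower rows, 2 of those at 0 and 1 of the higher. Among these guides the interval lay below the median gene for SNORA24 alone, and above it for SNORA66 and SNORA71B. Among 8 guides for 28S ribosomal RNA, 3 were lower, all listed at 0, and 1 was higher. SNORA13, a guide for 18S ribosomal RNA, was at 149 FPKM in RNA sequencing beside 696 in ribosome profiling (2 and 6 fragments). SNORA21, the 28S guide that was higher, was at 223 and 696, about 3 and 6 fragments. Both intervals held the median gene.

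Near-identical copies can share reads, so their rows are uncertain. SNORA59A and SNORA59B had identical transcripts and were at 95.3 and 93.7 FPKM in RNA sequencing, about 2 fragments each, and both at 0 in ribosome profiling. SNORA80 and SNORA80B, 91.9% identical, were at 619 and 482 FPKM in RNA sequencing and both at 0 in ribosome profiling. SNORA14A and SNORA14B, 91.1% identical, were at 145 and 141 FPKM in RNA sequencing and 226 and 220 in ribosome profiling. The 4 copies of SNORA71, guides for 18S ribosomal RNA on 1 locus, went apart. SNORA71B was at 355 FPKM in RNA sequencing against 2254 in ribosome profiling, about 5 and 20 fragments. SNORA71D, 90.3% identical to it, was at 540 and 306, while SNORA71A and SNORA71C were both at 270 and 0. SNORA38 was at 153 and 960 and SNORA38B, 83.3% identical, at 153 and 119. The SNORA38 row lay on the haplotype contig 6_ssto_hap7 and had the status NOTEST in the authors' deposited table. SNORA11 and SNORA11B were at 240 and 91.8 FPKM in RNA sequencing and at 0 in ribosome profiling. SNORA74A, at 130 and 260, and SNORA74B were 67.3% identical. Further members carry copy names in GENCODE v29. SNORA3 and SNORA45 are SNORA3A and SNORA3B there, and SNORA17 and SNORA43 are SNORA17A and SNORA17B. SNORA34 is SNORA2C, beside SNORA2A, and SNORA50 and SNORA76 are SNORA50A and SNORA50C. The identity of these was not computed. SNORA34 overlaps the precursor of miR-1291 and SNORA81 that of miR-1248 in the annotation, and their reads cannot be told apart.

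Base composition and length did not enter the rule and are given as a description. The median GC content was 47.7% (32.5% to 66.9%) in the 44 members above 0 in both, 50.8% (36.4% to 72.4%) in the 27 at 0 in ribosome profiling and 41.5% (36.8% to 52.6%) in the 6 at 0 in RNA sequencing. Median lengths were 133, 134 and 131 nt.

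The proteins that bind box H/ACA RNAs were within 2-fold of the median gene where they passed the filter. The 4 core proteins were the synthase DKC1, at 17.4 FPKM in RNA sequencing beside 14.2 in ribosome profiling, NOP10 at 51.5 and 124, NHP2 at 34.0 and 42.7, and GAR1 at 9.41 and 13. None of the 4 was at least 2-fold lower or higher. Of 10 assembly and trafficking factors 4 passed the filter, among them the helicases RUVBL1 (30.4 and 44.2 FPKM) and RUVBL2 (41.0 and 64.6), and none was 2-fold lower or higher. The telomerase RNA TERC, which carries an H/ACA domain, was at 84.4 FPKM in RNA sequencing against 45.1 in ribosome profiling, a centred log2 ratio of -1.28. Of 21 Cajal body RNAs (SCARNA), several of which hold H/ACA domains, 11 were at least 2-fold lower, 5 of them at 0 in ribosome profiling, and 6 at least 2-fold higher, shares of 52.4% and 28.6%, against 19.7% and 13.1% of tested rows. Their median ratio was -1.32, and -0.056 over the 14 above 0 in both libraries.

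Box C/D RNAs, the other class of small nucleolar RNAs, guide methylation of ribosomal RNA. Of 122 SNORD rows that passed the filter, 38 were at least 2-fold lower (31.1%) and 59 at least 2-fold higher (48.4%), against the same 19.7% and 13.1% of tested rows, with a median ratio of 0.97. They were listed at 0 in ribosome profiling in 28 rows and in RNA sequencing in 33, against 27 and 6 of the 77 SNORA rows. Over rows above 0 in both libraries the SNORD median was 0.50, beside 0.52 for SNORA. Over the 246 small RNA rows other than SNORA, 116 were lower and 89 higher, 79 were at 0 in ribosome profiling and 50 at 0 in RNA sequencing. The box H/ACA shares of 44.2% lower and 32.5% higher stood beside 47.2% and 36.2% in these rows, and no difference between the classes was tested.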

How the data were processed

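The deposited table holds 1 FPKM value per gene for each library, as the authors computed them, and the authors' log2 fold change, test statistic, p-value and q-value. The builds mm10 and hg19 and the tools bedtools 2.16.1, SAMtools 0.1.18, TopHat2 2.0.8b and Bowtie2 2.0.0.6 are listed in the submitters' processing notes, without roles. Which program wrote the table, and how it treated reads with several matches, is not given in the sources used here. The locus given for a small RNA inside a host gene is usually the host's. An FPKM of a row of about 130 nt is large for few fragments, and reads of near-identical or overlapping genes may have been divided between rows.

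Ratios were computed with Python 3.11.15 (pandas 2.3.3, SciPy 1.17.1) at a pseudocount of 1 FPKM over 2734 rows with a mean of at least 10 FPKM, and centred on their median. With 1 library per assay no p-value was computed. Counts at 2-fold and 4-fold over the members stand beside the same share of all tested rows. The members, gene lists, alternatives and the naming rule were chosen with earlier results of these data known. The naming rule took the 10 members of highest mean FPKM, the 5 highest and 5 lowest ratios, the 5 most abundant rows at 0 in each library, members the authors called, numbers with 2 or more copies, a set of 8 well-known members, and those nearest the threshold. The remaining named members share a host with these, are ribosomal RNA guides or were picked after their values were seen.

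Depth is not given in the table. The commonest FPKM ratio, 1.56 in 378 rows, and the next were 1.56 times ratios of small whole numbers, so 1 ribosome profiling fragment was read as worth 1.56 times the FPKM of 1 RNA sequencing fragment. The FPKM of 1 fragment was fitted against length on 10 rows with loci of their own (17 values, at most 0.0051 from a whole number), 5 of which are members. The fitted rows were 110 to 139 nt long, and the fit was applied from 110 to 160 nt. Above 139 nt it was extrapolated, among others for SNORA57 (149 nt), SNORA6 (151 nt) and SNORA62 (153 nt). The smallest step was taken as 1 fragment. The fitted rows, the method and its tolerances were chosen after the values were seen. Of 85 member values under 10.5 fragments from rows not used in the fit, 69 (81.2%) lay within 0.15 of a whole number, and 66 within 0.1. The 12 other rows with loci of their own, 121 to 135 nt long and left out of the fit, gave 6 values under 10.5 fragments, all within 0.15. Other values were rounded, those above 0 to at least 1, as for SNORA58 at 0.32 in ribosome profiling. An interval was given only where both values lay within 0.3 of a whole number or above 10.5. Exact 95% intervals of the FPKM ratio, with 1 end for a row at 0 in a library, cover counting error only; fragments amplified by PCR are not independent molecules. No count test was run.

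Hosts were taken from rows on the same locus or, for 6 members, from GENCODE v29 alone. All 77 names matched GENCODE v29 (GRCh38), 8 through an older name listed by RefSeq. Its coordinates were used only within that annotation, to find genes that contain a member and microRNA precursors that overlap it. The list of ribosomal RNA guides came from general knowledge and is not complete. The ratio step was tested on simulated data.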

Additional observations from a re-analysis of the deposited data

How the results depend on the processing

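The 2 medians, the counts at 2-fold and the counts at 0 over the members were recomputed under 12 alternatives and 1 chosen after the values were seen, and so were the ratios of 25 named members above 0 in both libraries, except with copies of 1 SNORA number summed. The counts at 4-fold, sums, intervals and counts by host, target or RNA class were not. Without a filter on mean FPKM the members' median log2 ratio turned from -0.55 to 0.12, and the median without rows at 0 moved from 0.52 to 1.2, since the centre is then that of all expressed genes. At a mean FPKM of at least 1 the 2 medians were -0.0082 and 1.07. Over the 29 members with at least 10 fragments over both libraries these medians were 1.06 and 1.29, with 6 rows at least 2-fold lower, 15 at least 2-fold higher, 2 at 0 in ribosome profiling and 1 at 0 in RNA sequencing; fewer members enter. Of the 25 members, 3 changed sign: SNORA62 to 0.060 at a mean FPKM of at least 1 and 0.19 with no filter, SNORA64 to -0.094 at 30 and -0.068 at 100, and SNORA48 to 0.0021 with no filter. With no filter, 23 of the 25 moved by at least 1.5-fold and kept their sign. The counts at 2-fold and at 0 stayed within 1.5-fold of those reported under all of the first 12 alternatives. No replicate could be left out and no paired analysis was possible because each assay had 1 library. Depth limits most single members to a few fragments, so a difference under several-fold could not be seen in them.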
